A study of Mus musculus with 24 samples.

Results

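Expression of 10 genes of the REST complex and of the neuronal lineage was examined in undifferentiated mouse embryonic stem cells that lack huntingtin or carry knock-in huntingtin alleles. The genes were Rest, Rcor1, Rcor2, Tubb3, Stmn2, Syp, Thy1, Nes, Sox1 and Bdnf, and every probe set that the platform annotation gives to 1 of them and to no other gene was taken, which made 21 probe sets of 45037 on the array. Probe sets were tested where 3 arrays or more reached log2 5, which retained 14 of these 21, against 39.9% of all probe sets. The samples were total RNA of 129/Sv stem cells, 1 sample per Affymetrix array. The huntingtin gene is called Hdh in the labels and Htt in current nomenclature. The knock-out group (6 arrays) has the genotype null. The knock-in lines (3 arrays each) carry an allele of 7 CAG repeats beside an expanded one, with 16 repeats in Q20, 45 in Q50 (43 in its replicate 3), 85 in Q91 and 111 in Q111. The control group (6 arrays) has 7 repeats on both alleles. All groups share the 129/Sv background and the undifferentiated state. Titles call the arrays biological replicates, but the sources used here do not say whether they were clones or parallel cultures, or whether feeder cells were used. The p-values therefore measure only the spread between these arrays.

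REST (also NRSF) is a zinc-finger protein that binds the RE1 element near many neuronal genes and represses them in stem cells and in cells outside the nervous system. It recruits RCOR1 (CoREST), or the related RCOR2, which hold histone deacetylases and the demethylase KDM1A, while its other end recruits SIN3 proteins. Stem cells express REST strongly, and its level falls when cells become neurons. In neurons, huntingtin is known for binding REST in the cytoplasm, and Bdnf, the gene of a neurotrophin, is a well-known REST target.

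The labels were checked first. On its strongest probe set (1425969_a_at) Htt averaged 7.21 ± 0.27 in the knock-out and 8.01 ± 0.29 in the controls (SD, n = 6 each), a log2 change of -0.80 (SE 0.16, limma adjusted p = 0.00195). The lines, which keep both alleles, averaged 6.96 to 7.54 on it, so this probe set does not separate the knock-out from the lines. On 1456667_at Htt averaged 6.66 ± 0.30 in the knock-out and 6.39 ± 0.14 in the controls, a change of 0.26 in the direction opposite to the label that did not pass (SE 0.14, adjusted p = 0.211). On 1435539_at the change was -0.30 (SE 0.10, adjusted p = 0.0540), and the remaining probe set, under the filter level, averaged 3.61 and 3.56. The Htt probe sets therefore do not settle which arrays lack the gene. The description field of the labels names the control and knock-out arrays the other way round, and the titles, group and genotype labels were followed here, so each direction given for the knock-out rests on them. The pluripotency factors Pou5f1, Nanog and Sox2 averaged 13.31 to 14.74 in all 6 groups, but many pluripotency markers were called lower in the lines, as given below. Of the neuronal list, the neuron markers Dcx and Rbfox3 had group means of 2.13 to 2.98, but other members were well above the filter level: on its strongest probe set Nefl averaged 7.23 in the knock-out, 9.27 to 10.57 in the lines and 7.99 in the controls, and Gap43 averaged 7.39, 8.65 to 9.61 and 8.49 in the same groups. The share of probe sets at or above log2 5 was 36.8% to 38% per array. Q50 replicate 3 stood apart in the 3' minus 5' difference of Actb, a measure of RNA integrity, with 1.54 against 0.75 to 1.03 on the other arrays.

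The members fell into 3 ranges of signal. Rest, Rcor1, Rcor2, Tubb3 and Stmn2 stood above log2 5 on every array with each of their 11 probe sets. Thy1, 1 Nes probe set (1449022_at) and 1 Sox1 probe set (1438729_at) crossed this level on 9, 10 and 9 of the 24 arrays. The remaining 7 probe sets stayed below it on all arrays and include both of Syp and both of Bdnf. A log2 value under 5 was not told from background, so the exact size of a change with a group mean below this level is not settled. In bulk RNA, fewer cells of a type and less RNA per cell cannot be told apart.

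**Figure D1:**
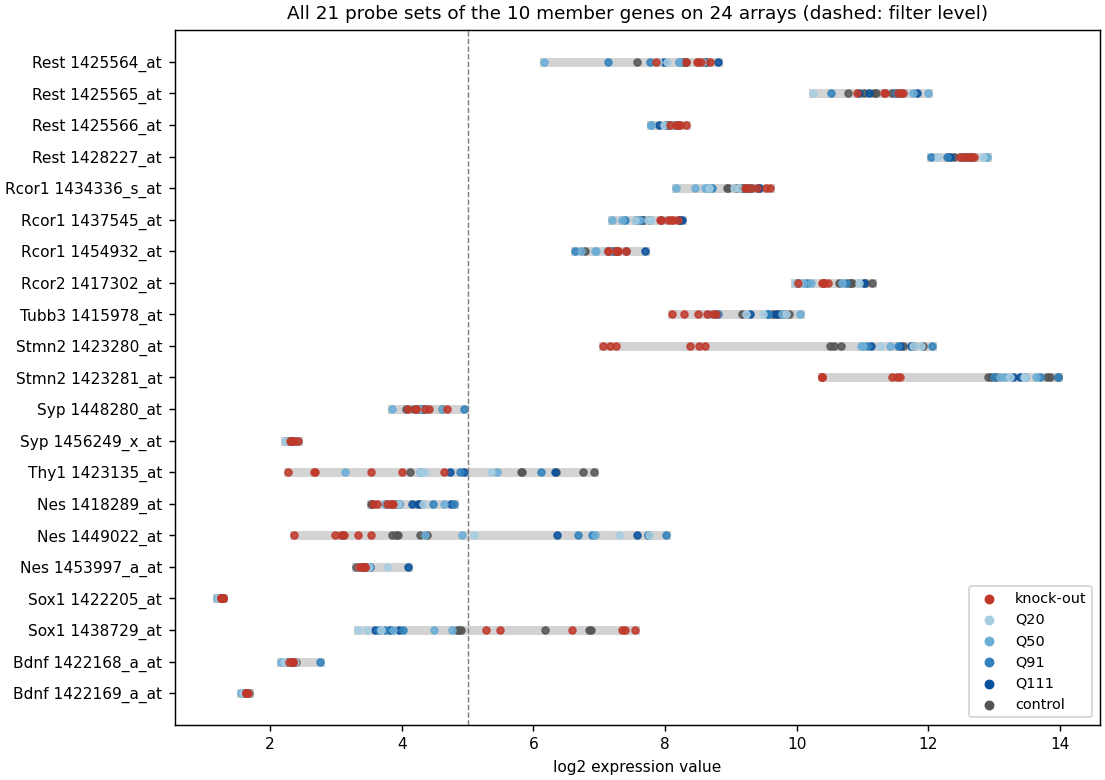
Log2 expression value (horizontal axis) of the 21 member probe sets (rows) on 24 arrays, 1 point per array coloured by group, with the whole range as a grey bar and the filter level of 5 dashed. Rest, Rcor1, Rcor2, Tubb3 and Stmn2 lie right of the line on all arrays, Syp and Bdnf left of it, and Thy1, Nes 1449022_at and Sox1 1438729_at span it.

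Changes over control were tested with a single limma fit to all tested probe sets, with Benjamini-Hochberg adjustment over 17980 probe sets and a threshold of 0.05. The knock-out and the lines share the same 6 control arrays, so their changes are not independent of each other. In the knock-out, 1 of the 14 tested member probe sets rose and 4 fell, while among all tested probe sets 7.42% rose and 7.17% fell. In Q20, 1 rose and 1 fell, against 16.2% and 9.00% of all. In Q50, 0 rose and 1 fell, against 5.70% and 2.30%. In Q91, 1 rose and 1 fell, against 12.7% and 9.49%. In Q111, 2 rose and 1 fell, against 16.2% and 9.49%. The members' share is near or below the background in most directions of the lines, and the 4 falls in the knock-out come from 3 genes, since Stmn2 has a pair of probe sets. The split of all calls in the lines depends on scaling: 57.2% to 71.2% of them were rises on the deposited values, and 41.0% to 48.2% after centring each array on its median. The median of the tested probe sets stood 0.12 higher in Q111, 0.11 higher in Q20, 0.08 in Q50, 0.07 in Q91 and 0.02 in the knock-out than in the controls. Every member call named above kept its direction and its side of the threshold under median centring and under quantile normalization.

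**Figure D2:**
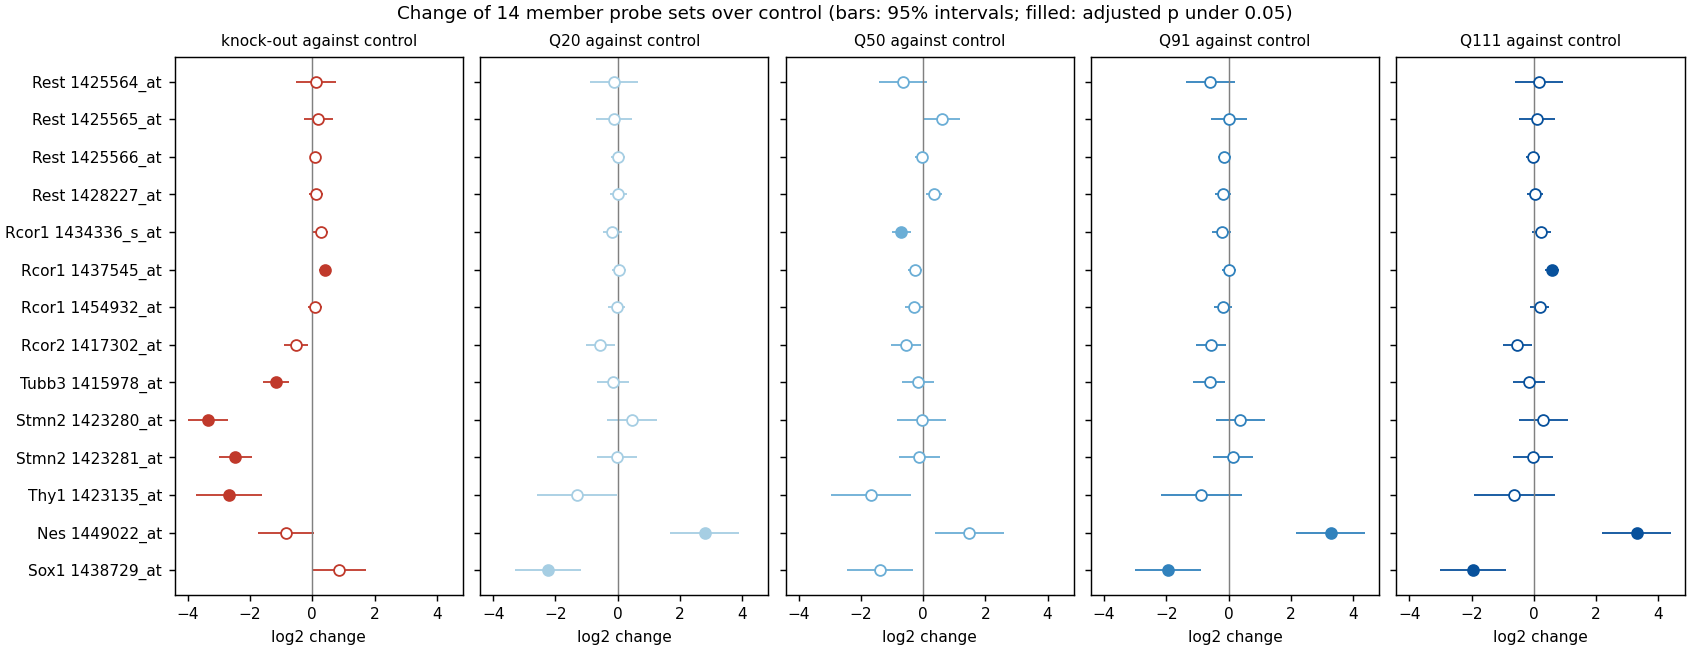
Log2 change over control (horizontal axis) of the 14 tested member probe sets (rows) in the knock-out and the 4 knock-in lines (panels), with 95% intervals from the limma fit and filled points for an adjusted p under 0.05. Stmn2, Tubb3 and Thy1 lie left of 0 in the knock-out panel, while Nes 1449022_at lies right of 0 in each line and Sox1 1438729_at left of it.

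Rest itself, the repressor, did not pass the test in any comparison. On its strongest probe set (1428227_at) the knock-out arrays ran from 12.48 to 12.69 with a median of 12.60, and the control arrays from 12.29 to 12.63 with a median of 12.49. The groups overlapped, and the change was 0.12 (SE 0.10, adjusted p = 0.481). It held 12.50, 12.15 and 12.83 in Q20, with 12.89, 12.87 and 12.67 in Q50. Q91 had 12.28, 12.04 and 12.53, while Q111 had 12.66, 12.55 and 12.32. Only the 3 Q50 arrays lay wholly above the controls on this probe set, with a change of 0.34 (SE 0.13, adjusted p = 0.0971). In the order of group means, Q50 came first and Q91 last, and every neighbouring pair overlapped.

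The other Rest probe sets gave no uniform picture. In Q50, 1425565_at held 12, 11.60 and 11.77, against 10.77 to 11.51 in the controls, a change of 0.60 (SE 0.27, adjusted p = 0.174). On 1425564_at the Q50 change had the opposite sign, at -0.64 (SE 0.37, adjusted p = 0.300), and it rests on replicate 3, which held 6.16 beside 8.57 and 8.21 in the other 2 arrays. All other arrays of the study lay between 7.14 and 8.80 on that probe set. Replicate 3 is also the array with the Actb difference of 1.54, whose part in this value was not tested. Over the 24 arrays the pairs of Rest probe sets correlated with r from 0.02 to 0.75, as a description. The knock-out changes of the 4 Rest probe sets were 0.09 to 0.20, with adjusted p of 0.481 to 0.863.

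Rcor1, the CoREST scaffold that joins REST to KDM1A and the histone deacetylases, was the only gene with called changes among Rest, Rcor1 and Rcor2. On 1437545_at the knock-out arrays ran from 7.92 to 8.19 (median 8.06) and the control arrays from 7.56 to 7.75 (median 7.65). The 2 groups did not overlap, and the rise was 0.40 (SE 0.09, adjusted p = 0.00413), or 132% of the control level. The same probe set held 8.21, 8.25 and 8.23 in Q111, all above every control array, a rise of 0.58 (SE 0.11, adjusted p = 4.91e-04). In Q20 it held 7.55, 7.79 and 7.74, in Q50 7.61, 7.34 and 7.19, and in Q91 7.63, 7.94 and 7.39, and these lines overlapped the controls.

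On the remaining Rcor1 probe sets neither rise was called. The strongest, 1434336_s_at, differed by 0.27 in the knock-out (adjusted p = 0.138) and, in Q111, by 0.24 (adjusted p = 0.232). In Q50 it held 8.45, 8.61 and 8.16, below all controls, which ran from 8.94 to 9.29, and it fell by 0.70 (SE 0.15, adjusted p = 0.00574). On 1454932_at the changes were 0.09 in the knock-out (adjusted p = 0.673), 0.18 in Q111 (adjusted p = 0.368) and -0.29 in Q50 (adjusted p = 0.204). The 3 probe sets correlated over the arrays with r from 0.63 to 0.79. Among the 4 lines, Rcor1 was the only member gene with a called difference, on 1437545_at (adjusted p = 0.00124) and 1434336_s_at (adjusted p = 0.00783), with line means 0.85 and 0.95 apart. The F-test called 9.74% of all tested probe sets.

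Rcor2, the CoREST paralogue of stem and neural progenitor cells, was lower in the means of all other groups than in the controls without passing the test. The knock-out arrays ran from 10.02 to 10.48 (median 10.41) and the control arrays from 10.64 to 11.14 (median 10.84). No knock-out array reached a control array, and the change was -0.53 (SE 0.19, adjusted p = 0.0611). A fit to these 2 groups alone gave the same change with an adjusted p of 0.00304. In Q20 the arrays held 9.98, 10.04 and 10.94, in Q50 10.68, 10.10 and 10.21, in Q91 10.75, 10.02 and 10.16, and in Q111 10.01, 10.02 and 11.02. In each line 2 arrays lay below the controls and 1 among them. The changes were -0.53 to -0.57 in the 4 lines, with adjusted p of 0.0783 to 0.136. Without its high array the change passed in Q20 (replicate 3 left out, -0.87, adjusted p = 0.0108), in Q91 (replicate 1, -0.79, adjusted p = 0.0273) and in Q111 (replicate 3, -0.86, adjusted p = 0.00841). It also passed after median centring in Q20 (-0.67, adjusted p = 0.0391) and Q111 (-0.65, adjusted p = 0.0412).

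Stmn2 had the largest change of any member in the knock-out. It encodes stathmin 2 (SCG10), a microtubule-regulating protein of growing axons and a known REST target, and here it was strongly expressed in undifferentiated cells. On 1423281_at the knock-out arrays ran from 10.38 to 11.57 (median 10.92) and the control arrays from 12.90 to 13.96 (median 13.42). On 1423280_at they ran from 7.05 to 8.60 (median 7.81) in the knock-out and from 10.51 to 11.92 (median 11.14) in the controls. The groups lay apart on both probe sets. Stmn2 fell by 2.47 on 1423281_at (SE 0.25, adjusted p = 3.76e-06) and by 3.35 on 1423280_at (SE 0.31, adjusted p = 8.66e-07), to 18.1% and 9.81% of the control level. The 2 probe sets correlated with r = 0.99 over the 24 arrays.

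In the knock-in lines the Stmn2 values lay among those of the controls. On 1423281_at the arrays held 13.45, 13.46 and 13.24 in Q20, 13.16, 13.64 and 13.09 in Q50, 12.99, 13.96 and 13.69 in Q91, and 13.39, 13.47 and 13.29 in Q111. All 12 lie within or at the range of the controls, and the changes of -0.12 to 0.13 had adjusted p of 0.805 to 0.952. On 1423280_at the changes were -0.04 to 0.47, with adjusted p of 0.400 to 0.966. In the order of group means, the knock-out came last and its arrays did not overlap those of Q50, the next group above it.

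Tubb3, the class III beta-tubulin used as a marker of young neurons, fell in the knock-out as well. The knock-out arrays ran from 8.10 to 8.77 (median 8.57) and the control arrays from 9.17 to 9.88 (median 9.74), without overlap. It fell by 1.16 (SE 0.20, adjusted p = 7.46e-04), to 44.7% of the control level. In Q20 the arrays held 9.49, 9.83 and 9.23, in Q50 10.05, 9.77 and 8.67, in Q91 9.57, 8.78 and 8.80, and in Q111 9.57, 9.68 and 9.29. All 4 lines overlapped the controls. The change was -0.61 in Q91 (SE 0.25, adjusted p = 0.0805) and -0.15 to -0.17 in the others. The Q91 change is called once the arrays are centred (-0.69, adjusted p = 0.0351) or without control replicate 4 (-0.71, adjusted p = 0.0425) or Q91 replicate 1 (-0.88, adjusted p = 0.0218).

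The promoter of Tubb3 is shown because this REST target changed and its window holds the letters of the left and of the right RE1 arm, far from each other. RefSeq promoter windows of 300 bases (assembly GRCm38.p6) were matched by symbol for 7 of the 10 genes, in 13 windows, and none was used for Rest, Stmn2 and Thy1. Capitals mark AGCACC (RE1 left arm), GGACAG (RE1 right arm) and GGGCGG (the core of the SP1 box), searched on both strands. The Tubb3 window lies at chr8:123411303-123411602 on the + strand.
Tubb3: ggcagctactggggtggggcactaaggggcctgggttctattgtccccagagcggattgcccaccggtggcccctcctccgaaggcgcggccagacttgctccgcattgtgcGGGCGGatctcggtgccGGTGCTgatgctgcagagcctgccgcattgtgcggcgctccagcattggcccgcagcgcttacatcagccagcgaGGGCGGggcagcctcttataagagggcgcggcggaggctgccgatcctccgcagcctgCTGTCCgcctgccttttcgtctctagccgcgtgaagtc
In the Tubb3 window the left arm starts at position -121 and the right arm at position 13 relative to the transcription start, both on the - strand, and GGGCGG starts at positions -138 and -46 on the + strand. Read along the - strand, the right arm comes before the left, so the arms do not form an RE1 element. None of the marked stretches overlap. The left arm is in 16.2% of 32851 RefSeq promoter windows of mouse genes, the right arm in 22.2% and GGGCGG in 35.7%. Of the 13 member windows, 2 hold the left arm, 3 the right arm and 8 GGGCGG. Both arms in order and 2 bases apart were in 0 of the 13 member windows and in 0.0517% of all windows. Among the other members, the Rcor2 window holds a right arm at position -68 and 2 of the 7 Bdnf windows hold an arm. These matches describe the letters in the windows and say nothing of binding.

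Thy1, a surface glycoprotein of mature neurons, T cells and fibroblasts, was near the filter level. The knock-out arrays ran from 2.27 to 4.64 (median 3.11) and the control arrays from 4.13 to 6.92 (median 6.09). The groups overlapped by the lowest control array, replicate 4, and 0 knock-out arrays but 5 control arrays reached log2 5. Thy1 fell by 2.66 (SE 0.51, adjusted p = 0.00154), and since the knock-out mean of 3.30 is under the filter level the size of this fall is not settled. Of the 9 arrays that carried it through the filter, 5 were controls. The lines held single arrays above log2 5, at 5.35 in Q20, 5.44 in Q50, 6.12 in Q91 and 6.33 in Q111. Their changes of -0.63 to -1.67 did not pass (adjusted p of 0.0979 to 0.499), but without control replicate 4 those of Q20 (-1.67, adjusted p = 0.0380) and Q50 (-2.04, adjusted p = 0.0352) did.

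Markers of fibroblasts, which can be present as feeder cells, were set beside Thy1. Of 17 tested probe sets of the fibroblast list, Thy1 was the only 1 to fall in the knock-out and 0 rose. The summed linear signal of the 24 marker genes was 6612 to 9462 per knock-out array and 5568 to 8625 per control array. Fn1, the strongest of them at 12.79 in the knock-out and 12.72 in the controls, makes up most of these sums. Of the same list, Dcn, Lum, Postn and Fap stayed at group means of 2.19 to 2.99 in all groups, while Fn1 had 12.09 to 12.79 and Fbln1 7.95 to 8.69.

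Markers of the primed epiblast, the state that follows naive pluripotency, were lower in the knock-out beside Stmn2, Tubb3 and Thy1. Of 18 tested probe sets of this list 9 fell and 0 rose (50% fell, against 7.17% of all tested probe sets). The 10 genes averaged 6.80 to 7.37 per knock-out array and 7.55 to 7.98 per control array, without overlap. The DNA methyltransferase Dnmt3b fell by 1.18 (adjusted p = 1.95e-04) and Dnmt3a by 1.38 (adjusted p = 0.00195). The transcription factors Pou3f1 and Zic5 fell by 1.53 (adjusted p = 7.98e-04) and by 1.31 (adjusted p = 0.00127). The 19 pluripotency markers averaged 12.31 to 12.70 per knock-out array and 12.38 to 12.62 per control array. The part of the epiblast difference in the values of Stmn2, Tubb3 and Thy1 was not tested.

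**Figure D3:**
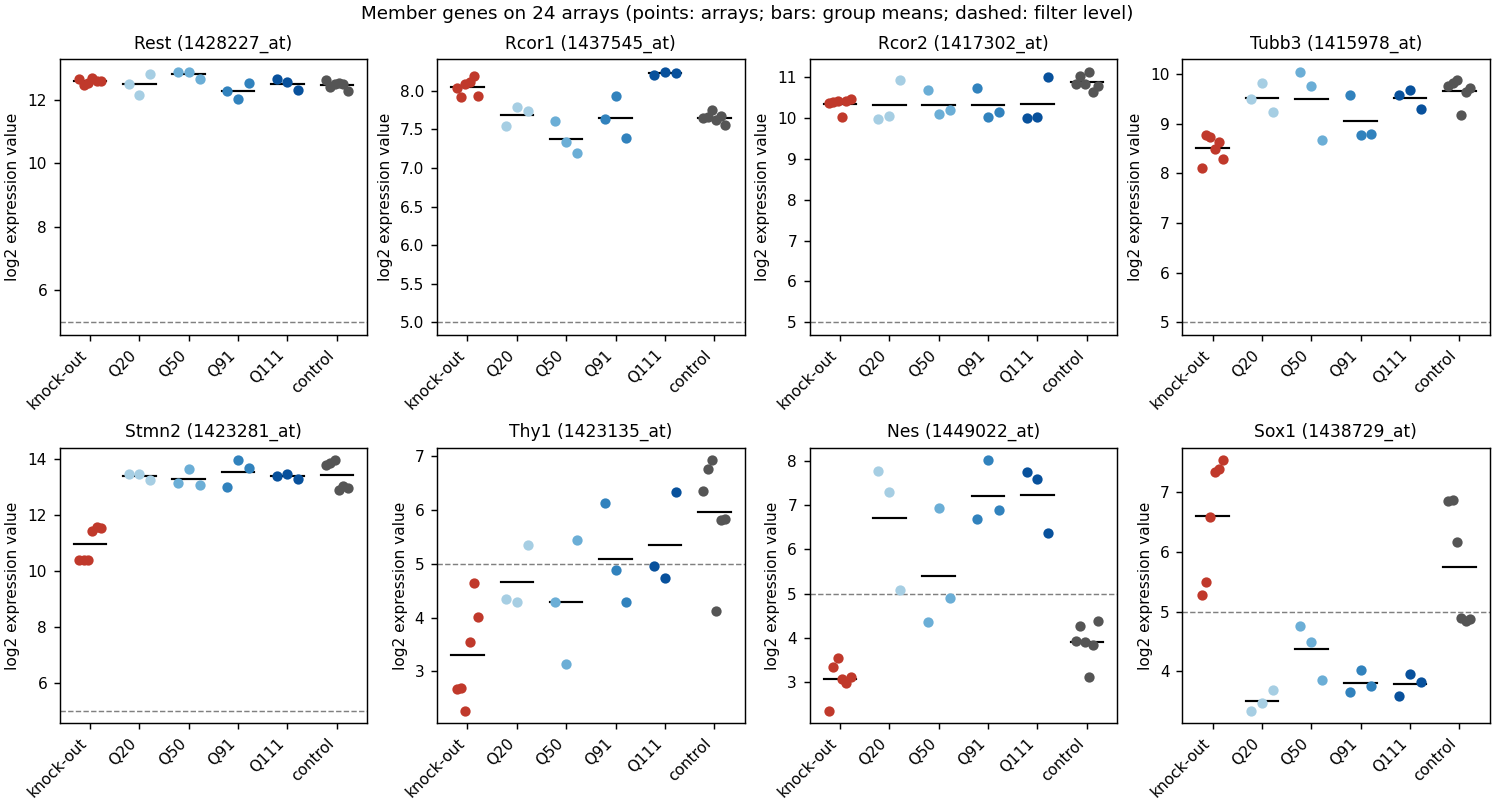
Log2 expression value (vertical axis) of 1 probe set for each of 8 member genes by group, with a point per array, a bar at each group mean and the filter level of 5 dashed. The strongest tested probe set is shown, except for Rcor1, where 1437545_at was taken for its smallest adjusted p in the limma fit. Stmn2 and Tubb3 are lowest in the knock-out, Nes is above 5 only in arrays of the knock-in lines, and Sox1 is above 5 only in knock-out and control arrays.

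Within the knock-out and within the controls, replicates 1 to 3 and replicates 4 to 6 differed for Stmn2 and Sox1, in opposite directions in the 2 groups. The labels give no meaning to the numbers, and this split was chosen with the values known. On Stmn2 1423281_at, knock-out replicates 4 to 6 held 11.44, 11.57 and 11.52 and knock-out replicates 1 to 3 held 10.39, 10.38 and 10.38, a difference of 1.13 (SE 0.18, adjusted p = 0.0113). Control replicates 4 to 6 held 12.90, 13.03 and 12.95 and control replicates 1 to 3 held 13.80, 13.85 and 13.96, a difference of -0.91 (SE 0.18, adjusted p = 0.0608). Sox1 1438729_at held 7.34, 7.39 and 7.54 in knock-out replicates 4 to 6 and 5.28, 5.49 and 6.58 in replicates 1 to 3, a difference of 1.64 (SE 0.27, adjusted p = 0.0156). Its control replicates 4 to 6 held 4.90, 4.84 and 4.87 and replicates 1 to 3 held 6.85, 6.88 and 6.17, a difference of -1.76 (SE 0.27, adjusted p = 0.0120).

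How large the knock-out change looked within sets of 3 therefore depended on which sets were put together. Deviations from the group mean, over all tested probe sets, correlated with r of -0.46 to -0.10 between knock-out and control arrays of the same replicate set (18 pairs) and of 0.15 to 0.50 between arrays of different sets (18 pairs), so like-numbered sets deviated in opposite directions. Whether arrays of a set had been exchanged between the groups was not tested.

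Stmn2 fell under either match. Put together by crossed sets, an arrangement chosen after seeing the data, it fell by 2.58 (knock-out replicates 1 to 3) and by 2.36 (knock-out replicates 4 to 6) on 1423281_at, and these changes differed by 0.21 (SE 0.25, adjusted p = 1.00). By like-numbered sets the changes were -3.49 and -1.45, which differed by 2.04 (SE 0.25, adjusted p = 2.76e-04). On 1423280_at the crossed changes were -3.43 and -3.27, and the like-numbered changes -4.61 and -2.09.

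For Sox1 the match decided the sign. The crossed changes were 0.92 (SE 0.27, adjusted p = 0.0710) and 0.79 (SE 0.27, adjusted p = 0.131), beside 0.85 over all arrays (SE 0.42, adjusted p = 0.180), and they differed by -0.13 (SE 0.38, adjusted p = 1.00). By like-numbered sets the changes were -0.85 (adjusted p = 0.0709) and 2.55 (adjusted p = 9.70e-06), with a difference of 3.40 (SE 0.38, adjusted p = 1.16e-04). Thy1 changed by -2.71 and -2.61 in crossed sets and by -4.13 and -1.19 in like-numbered sets. Tubb3 changed by -0.98 and -1.34 in crossed sets and by -1.28 and -1.04 in like-numbered ones.

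**Figure D4:**
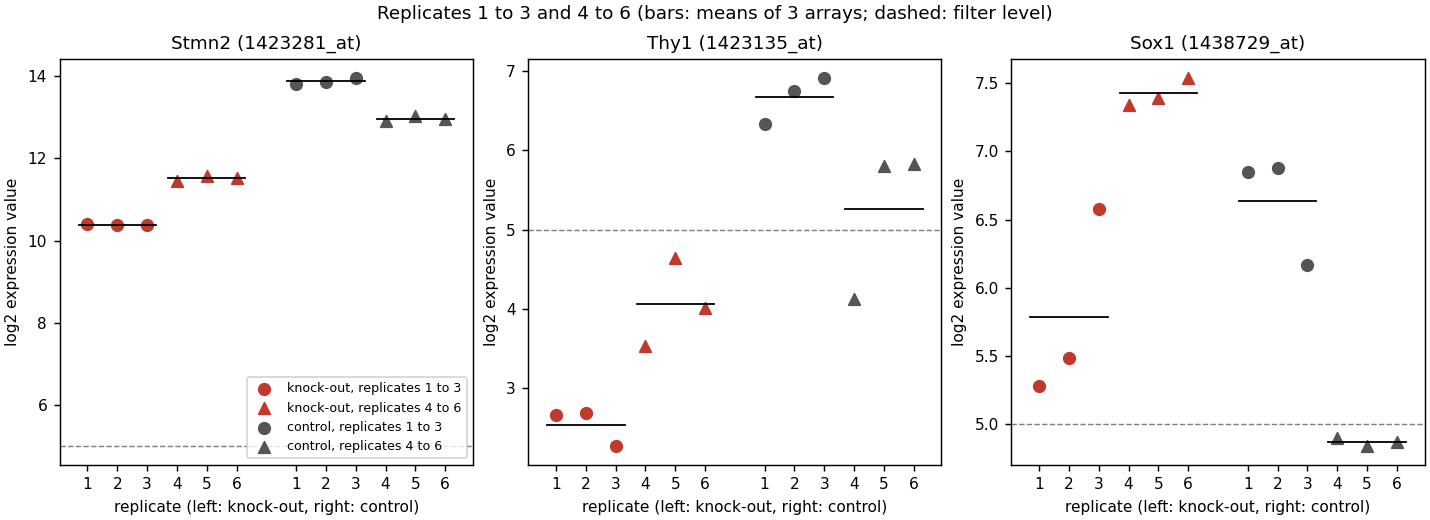
Log2 expression value (vertical axis) of Stmn2, Thy1 and Sox1 in each of the 6 knock-out arrays (left) and 6 control arrays (right) by replicate number, with circles for replicates 1 to 3, triangles for 4 to 6 and bars at the means of 3 arrays. Every knock-out array is below every control array for Stmn2, while Sox1 is higher in replicates 4 to 6 than in 1 to 3 in the knock-out (7.42 and 5.79) and lower in the controls (4.87 and 6.63).

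Of Nes and Sox1, both used as markers of neural progenitors, Nes rose and Sox1 fell in Q20, Q91 and Q111. Nes encodes nestin, an intermediate filament protein, and Sox1 a transcription factor of the early neural plate. On Nes 1449022_at the Q20 arrays held 7.76, 7.30 and 5.09, and Q50 had 4.36, 6.93 and 4.91. Q91 had 6.68, 8.01 and 6.89, while Q111 had 7.74, 7.58 and 6.36. The control arrays ran from 3.11 to 4.39 (median 3.93), below every array of Q20, Q91 and Q111. Only 1 Q50 array, 4.36, lay among the controls. The Nes rise was 2.80 in Q20 (adjusted p = 8.03e-04), 3.28 in Q91 (adjusted p = 1.89e-04) and 3.31 in Q111 (adjusted p = 1.59e-04), with an SE of 0.53 each. The Q50 change of 1.49 did not pass (adjusted p = 0.0881), and without Q50 replicate 1 it was 2.01 (adjusted p = 0.0335).

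Nes was low in the knock-out, at 2.36 to 3.54 (median 3.10), where the change of -0.85 did not pass (SE 0.44, adjusted p = 0.207) but did in a fit to the 2 groups alone (adjusted p = 0.0178). It reached log2 5 on 10 arrays, all of the knock-in lines, so it entered the test through the group in which it was high, and with a control mean of 3.91 the size of its rise is not settled. The other Nes probe sets stayed below log2 5 on all arrays. Of these, 1418289_at followed 1449022_at over the arrays with r = 0.72 and had changes of 0.58 in Q91 and 0.56 in Q111 (adjusted p = 0.102 and 0.101 in a fit without the filter).

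On Sox1 1438729_at the Q20 arrays held 3.34, 3.47 and 3.69, and Q50 had 4.76, 4.49 and 3.86. Q91 had 3.65, 4.02 and 3.75, while Q111 had 3.59, 3.96 and 3.82. All 12 lay below the 6 controls, which ran from 4.84 to 6.88 (median 5.53). Sox1 fell by 2.25 in Q20 (SE 0.51, adjusted p = 0.00302), by 1.94 in Q91 (SE 0.51, adjusted p = 0.00904) and by 1.96 in Q111 (SE 0.51, adjusted p = 0.00741), and the change of -1.38 in Q50 did not pass (adjusted p = 0.0964). These calls rest on control replicates 1 to 3. Against control replicates 4 to 6 alone the changes were -1.37 in Q20 (adjusted p = 0.0622), -1.06 in Q91 (adjusted p = 0.153) and -1.08 in Q111 (adjusted p = 0.136). The 9 arrays that reached log2 5 were the 6 knock-outs and 3 controls, and the line means of 3.5 to 4.37 are under that level. The second Sox1 probe set, 1422205_at, stayed at 1.24 to 1.27 in every group mean.

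The promoter windows of Nes and Sox1 are shown because these genes moved apart in the lines. Both windows are on the + strand, Nes at chr3:87970843-87971142 and Sox1 at chr8:12395269-12395568, with GGGCGG in capitals on either strand.
Nes: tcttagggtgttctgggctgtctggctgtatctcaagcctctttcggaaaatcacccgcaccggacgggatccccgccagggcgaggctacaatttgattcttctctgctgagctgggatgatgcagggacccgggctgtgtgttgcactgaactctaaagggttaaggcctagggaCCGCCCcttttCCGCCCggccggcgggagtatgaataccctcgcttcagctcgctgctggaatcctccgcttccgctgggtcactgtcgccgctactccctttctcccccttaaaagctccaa
Sox1: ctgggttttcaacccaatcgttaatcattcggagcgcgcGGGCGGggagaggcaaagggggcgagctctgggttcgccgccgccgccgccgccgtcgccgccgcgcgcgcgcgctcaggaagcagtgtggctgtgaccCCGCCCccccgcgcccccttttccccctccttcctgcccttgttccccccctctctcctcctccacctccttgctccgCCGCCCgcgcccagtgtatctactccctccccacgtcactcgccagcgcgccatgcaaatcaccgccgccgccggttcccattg
Neither window holds an RE1 arm. GGGCGG, which 35.7% of all windows hold, is present 2 times in the Nes window and 3 times in the Sox1 window, whose GC contents are 58.7% and 70.7%.

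The knock-in lines also differed from the controls in markers of other cell states. Of the 17 fibroblast probe sets tested, 10 rose and 1 fell in Q20, 4 rose in Q50, 10 in Q91 and 11 in Q111. The rises are 58.8%, 23.5%, 58.8% and 64.7% of the list, against 16.2%, 5.70%, 12.7% and 16.2% of all tested probe sets. The summed linear signal of the 24 fibroblast marker genes was 9478 to 22122 per array in Q20 and 5960 to 12452 in Q50, while Q91 had 14841 to 40986, Q111 had 15164 to 16066 and the controls 5568 to 8625. Fn1, which was not called, weighs heavily in these sums, with means of 12.09 to 12.49 in the lines and 12.72 in the controls. The genes that led in each line were Tagln, Thbs1 and Ccn2. Acta2 rose in all 4 lines, and Col1a1 and Col5a1 rose in Q20, Q91 and Q111. Tagln, Thbs1 and Col1a1 had control means of 4.69, 3.20 and 3.73, under the filter level. The filter can therefore raise the share of rises in this list, by an amount that was not tested. Fbln1 fell in Q20, and Dcn, Lum, Postn and Fap stayed under log2 3. The 10 primed epiblast markers, opposite to the knock-out, averaged 9.56 to 9.58 per array in Q20 and 7.99 to 9.54 in Q50, while Q91 had 9.31 to 9.83, Q111 had 9.65 to 10.02 and the controls 7.55 to 7.98. The 19 pluripotency markers averaged 11.62 to 12.48 in the lines and 12.38 to 12.62 in the controls. Of their 26 tested probe sets, 1 rose and 17 fell in Q20, 1 and 6 in Q50, 0 and 14 in Q91, and 1 and 17 in Q111. The falls are 65.4%, 23.1%, 53.8% and 65.4%, against 9.00%, 2.30%, 9.49% and 9.49% of all tested probe sets. Klf4 fell by 1.23 in Q20, 1.09 in Q50, 1.38 in Q91 and 1.25 in Q111 (adjusted p of 1.60e-05 to 0.00101). The part of these differences in the values of Nes and Sox1 was not tested.

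Syp and Bdnf gave no signal above the filter level. Synaptophysin, a synaptic vesicle protein encoded by Syp, ran from 3.85 to 4.94 on 1448280_at and averaged 2.32 on 1456249_x_at. Bdnf averaged 2.34 on 1422168_a_at and 1.64 on 1422169_a_at, with a highest single value of 2.76 in Q91 replicate 2. In the fit without the filter, adjusted p for the 5 changes over control was 0.473 or more on the Syp probe sets and 0.366 or more on those of Bdnf. A change of either gene was not detectable at this signal.

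The repeat length of the lines gave no called member. The slope of the log2 value over the 12 knock-in arrays, printed per 100 repeats, was called for 0 of the 14 member probe sets and for 0.0445% of all tested probe sets, which is 8 in number. The largest member slopes were 1.12 for Nes 1449022_at (SE 0.86, adjusted p = 0.985) and 0.89 for Thy1 (SE 0.61, adjusted p = 0.985). Rcor1 1437545_at had a slope of 0.57 (SE 0.23, adjusted p = 0.985). Arrays of 1 length belong to 1 line, so length and line cannot be told apart.

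The wider complex was described from a list of 30 REST corepressors and partners, of which 26 genes with 55 probe sets were tested. In the knock-out 8 probe sets of 6 genes rose (14.5%, against 7.42% of all) and 1 fell, and the median change was 0.09 against 0 over all tested probe sets. Zmym2 (0.55, adjusted p = 7.46e-04) and Gse1 (0.67, adjusted p = 0.00340), found in CoREST complexes, and Ctdsp2 (0.62, adjusted p = 0.00594), a phosphatase that acts on REST, were among those that rose beside Rcor1. In the lines 3 rose and 14 fell in Q20, 2 and 2 in Q50, 3 and 15 in Q91, and 4 and 7 in Q111. The falls are 25.5%, 3.64%, 27.3% and 12.7% of the list, against 9.00%, 2.30%, 9.49% and 9.49% of all tested probe sets, and the rises are 3.64% to 7.27%, below the share of all in each line. The medians were -0.15, -0.01, -0.26 and -0.03, against 0.02, 0.04, 0 and 0.01 over all tested probe sets. Sap30, a SIN3 complex subunit, fell by 0.69 in Q20 (adjusted p = 4.47e-04), 0.78 in Q91 (adjusted p = 1.23e-04) and 0.64 in Q111 (adjusted p = 7.16e-04), and rose by 0.36 in the knock-out (adjusted p = 0.0189). The exception in size was Prickle1, which is known for binding REST. It rose by 2.75 in Q20 (adjusted p = 3.35e-06), 2.55 in Q91 (adjusted p = 2.90e-06) and 3.06 in Q111 (adjusted p = 4.76e-07), relative to a control mean of 4.17. With 4.33 in the knock-out and 4.45 in Q50, Prickle1 had means above the filter level only in the lines where it rose. The size of these rises is therefore not settled.

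Genes with known RE1 elements were mostly under the filter level. Of 58 listed, 54 were annotated with 111 probe sets, and 22 probe sets of 18 genes passed the filter. Of all probe sets on the array, 39.9% passed it. In the knock-out 0 rose and 3 fell, which are the probe sets of Stmn2 and Tubb3. These are 13.6% of the list, against 7.17% of all tested probe sets. In Q20 5 rose and 3 fell, in Q50 0 and 0, in Q91 4 and 3, and in Q111 4 and 3. In Q20, Q91 and Q111 the rises are 22.7%, 18.2% and 18.2%, close to the 16.2%, 12.7% and 16.2% of all, and the falls are 13.6% in each, against 9.00%, 9.49% and 9.49%. Nefm, the medium neurofilament, rose by 3.35 in Q20 (adjusted p = 6.77e-04), 2.84 in Q91 (adjusted p = 0.00259) and 4.14 in Q111 (adjusted p = 8.78e-05), relative to a control mean of 3.24. Nefm too, at 3.07 in the knock-out and 4.75 in Q50, had means above the filter level only in the lines where it rose, so the size is not settled. Stmn3, a relative of Stmn2, fell by 1.66 in Q20 (adjusted p = 1.11e-04), 1.72 in Q91 (adjusted p = 7.22e-05) and 2.32 in Q111 (adjusted p = 3.20e-06). The list's median change was -0.17 in the knock-out, 0.17 in Q20, -0.13 in Q50, -0.01 in Q91 and 0.02 in Q111.

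Other neuronal genes and neural progenitor genes held called probe sets in all 5 comparisons. Of 16 probe sets of other neuronal genes, 9 rose and 1 fell in Q20, 8 and 2 in Q50, 7 and 1 in Q91, and 5 and 1 in Q111, while 0 rose and 2 fell in the knock-out. The rises are 56.2%, 50%, 43.8% and 31.2% in the lines, against 16.2%, 5.70%, 12.7% and 16.2% of all tested probe sets, and the falls in the knock-out are 12.5%, against 7.17%. The light neurofilament Nefl, at 3.17 in the controls on the probe set named by the rule, rose by 3.58 in Q20 (adjusted p = 2.27e-04), 2.50 in Q50 (adjusted p = 0.0130), 4.22 in Q91 (adjusted p = 3.90e-05) and 3.23 in Q111 (adjusted p = 4.52e-04). Crmp1, a protein of axon guidance, fell by 1.87 in the knock-out (adjusted p = 3.62e-06). Mapt, of the same list, went the other way from Nefl and had the smallest p of the list in Q20. It averaged 9.22 in the controls and was lower in Q20, at 6.33 (adjusted p = 1.01e-04). It was also lower in Q50, at 7.65 (adjusted p = 0.0307), and in the knock-out, at 8.05 (adjusted p = 0.0320). In Q91 and Q111 Mapt averaged 8.96 and 9.03 and was not called. Of 20 probe sets of neural progenitor genes, Nes and Sox1 included, 14 rose and 3 fell in Q20, 4 and 0 in Q50, 13 and 3 in Q91, and 12 and 3 in Q111, while 1 rose and 3 fell in the knock-out. The rises are 70.0%, 20%, 65.0% and 60.0% in the lines, against the same 16.2%, 5.70%, 12.7% and 16.2%, and the falls in the knock-out are 15.0%, against 7.17%. Only 20 of 48 progenitor and 16 of 56 other neuronal probe sets passed the filter. Several had control means under log2 5 and higher means in lines, such as Nes (3.91), Prom1 (4.39) and Zic2 (3.79) in the controls. The filter can therefore raise the share of rises in these lists, by an amount that was not tested. Sox11 rose by 4.17 in Q20 (adjusted p = 9.55e-06), by 2.92 in Q50 (adjusted p = 0.00106), by 4.90 in Q91 (adjusted p = 7.94e-07) and, in Q111, by 4.64 (adjusted p = 1.49e-06), relative to a control mean of 3.18. That mean is under the filter level, so the size of these rises is not settled. On its strongest probe set the differences were smaller: Sox11 averaged 6.39 in the controls, 8.95 in Q20, 7.80 in Q50, 9.27 in Q91 and 9.22 in Q111. Sox2 fell by 0.44 in Q20 (adjusted p = 0.00954), 0.48 in Q91 (adjusted p = 0.00570) and 0.33 in Q111 (adjusted p = 0.0437), relative to a control mean of 14.40.

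**Figure D5:**
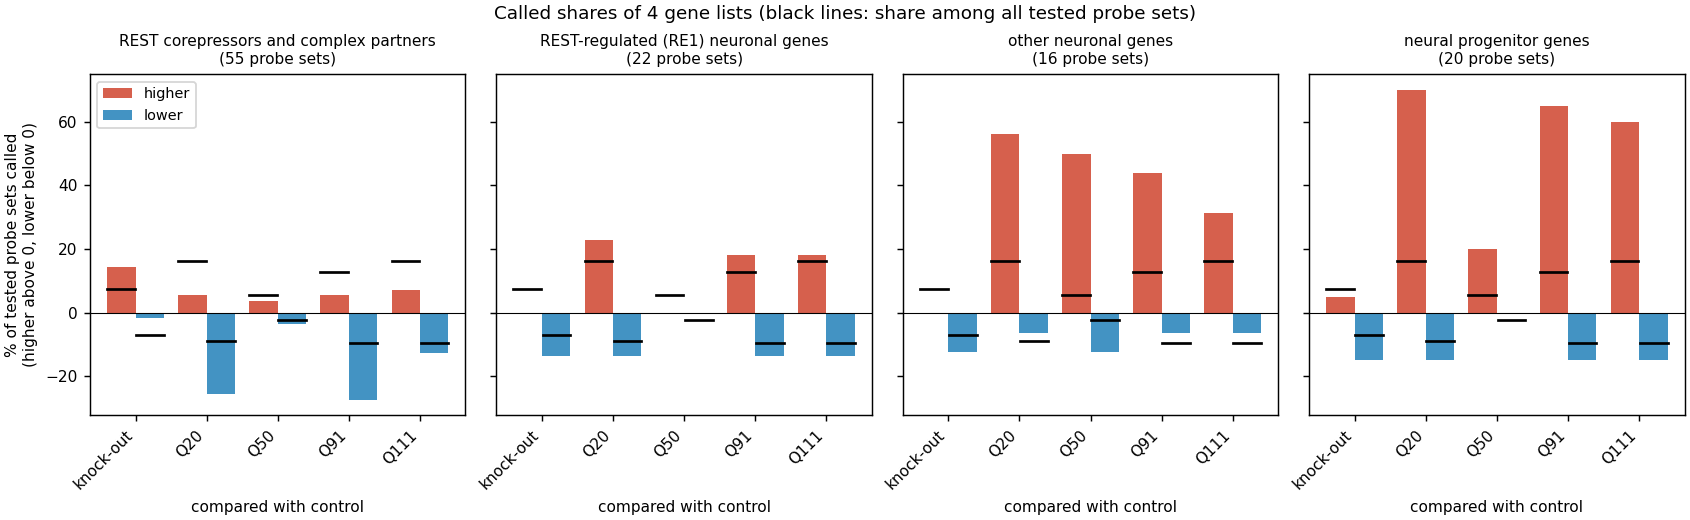
Percent of tested probe sets called higher (above 0) or lower (below 0) than in the controls, for 4 gene lists (panels) in the knock-out and the 4 lines, with black lines at the percent among all tested probe sets. Neural progenitor genes reach 70.0% higher in Q20 against 16.2% of all, and REST corepressors 25.5% lower in Q20 against 9.00%. Probe sets low in the controls can pass the filter through the lines where they are high, which can raise the share of rises.

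Of 34 tested probe sets of regulators of REST stability and splicing, 2 rose and 2 fell in the knock-out, 9 and 5 in Q20, 1 and 1 in Q50, 0 and 3 in Q91, and 8 and 3 in Q111. The knock-out share of 5.88% in each direction is below the 7.42% and 7.17% of all tested probe sets, and the rises in Q20 and Q111 are 26.5% and 23.5%, against 16.2% of all in each. In Q20 Csnk1d had probe sets called in both directions. Of 16 tested probe sets of BDNF receptors and regulators, 2 rose in the knock-out (12.5%, against 7.42% of all), both of Creb1, a transcription factor that activates Bdnf in neurons. The stronger call was a rise by 0.60 (adjusted p = 2.35e-04). Hap1, a huntingtin-associated transport protein, fell by 1.49 in Q91 (adjusted p = 4.35e-04), and Mef2a rose by 1.94 to 2.05 in Q20, Q91 and Q111. The control mean of this Mef2a probe set was 4.26, under the filter level. On its strongest probe set Mef2a averaged 5.94 in the controls, 7.12 in Q20, 7.32 in Q91 and 7.34 in Q111. Of the 3 glial and 1 blood or endothelial probe sets tested, 1 of each fell in the knock-out, where 7.17% of all fell, and 0 were called in the lines. The glial fall was Slc1a3, at 6.70 against 7.47 in the controls (adjusted p = 0.00911). The other was Pecam1, at 7.40 against 8.82 (adjusted p = 0.0354), which averaged 7.40 to 9.45 over the groups. With so few probe sets tested, these falls do not measure the content of such cells.

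The genes most like each member over the 24 arrays were sought among 9504 genes, with Pearson's r as the measure. The closest to Nes were Krt18 (r = 0.98), Cd47 and Anxa3 (r = 0.97 each). Krt18 averaged 7.25 in the knock-out, 12.51 in Q20, 10.75 in Q50, 13.13 in Q91, 13.06 in Q111 and 8.27 in the controls. The closest to Stmn2 were Mest (r = 0.94), Lrp2 (r = 0.93) and Lncenc1 (r = 0.90). Mest, an imprinted gene, averaged 3.27 in the knock-out, 11.60 to 12.54 in the lines and 11.11 in the controls. Deviations from the group means correlated between Stmn2 and Lrp2 with r = 0.88, but with r = -0.13 between Stmn2 and Lncenc1, whose likeness comes from the low knock-out group. The closest to Sox1 were Zbtb34 (r = 0.94), Sema4a (r = 0.92) and Nop9 (r = 0.91). Tubb3 was closest to the ephrin receptor gene Epha4 (r = 0.90), which averaged 6.72 in the knock-out and 9.31 in the controls. For Thy1 the 3 closest were Fry, Inpp5d and Plpp1 (r = 0.83 to 0.84), for Rcor2 Mrpl1, Slc4a5 and Reep6 (0.83 to 0.85), for Rcor1 Pom121, Rab14 and Acap2 (0.84 to 0.86), and for Rest Uri1, Ano9 and Trim13 (0.69 to 0.72). These correlations share the same arrays and groups and are given as a description.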

How the data were processed

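Total RNA of 24 stem cell samples was measured on 1-colour arrays. The authors deposited log2 expression values, and the submitters' processing notes name GCRMA, which adjusts for background from the probe sequences, normalizes between arrays and gives 1 value per probe set. Values near the background are compressed by it. The sources used here give neither its version nor the chip definition.

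Groups followed the titles, group and genotype labels. After removal of 64 control probe sets, 34945 probe sets had 1 gene in GEO's platform annotation, 932 had several and 9160 had no name here. Probe sets with log2 5 or more on at least 3 arrays (17980) entered a limma fit (R 4.3.3, limma 3.58.1) with 6 group means and 18 residual degrees of freedom. The moderated tests were two-sided and compared the knock-out and each line with the controls, an F-test compared the lines, and a slope used the 12 knock-in arrays. Members under the filter were read from a fit to all probe sets. The fits were tested on simulated data. Alternatives were quantile normalization, median centring, other filters, another variance model, a replicate block, single groups, parts of the controls and each array left out. The number of arrays limits the precision.

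The members, gene lists and rules were chosen with earlier results of these data known. Named genes were all members, for each list up to 4 called genes with the smallest p in a comparison, and for each member the 3 genes with the highest r. Not every gene within this rule was named. Some were named outside it, among them Sox2, Pou5f1, Nanog, Dcx, Rbfox3, Gap43 and several fibroblast markers. Exact two-sided permutation tests were also run for every member probe set, adjusted over 105 tests. In the knock-out, Stmn2, Tubb3, Rcor2 and the called Rcor1 probe set had an adjusted p of 0.0454. Thy1, called by limma, did not pass (adjusted p = 0.0758), and Rcor2, which passed, was not called by limma. The called line changes had adjusted p of 0.0893 (Nes and Rcor1) and 0.104 (Sox1). The smallest exact p possible for a line, 0.0119, came to 0.0893 after adjustment, so this test could pass no line change.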

Additional observations from a re-analysis of the deposited data

Results flagged for a closer look

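In groups of 6 arrays, a value was singled out where its gap to the nearest other array, relative to the whole range, passed Dixon's critical value. Of 42 groups examined, 4 held such a value, and chance alone gives about 1 in 20. Rest 1425564_at was 7.58 in control replicate 6, with 8.27 to 8.62 in the other controls. Rcor2 was 10.02 in knock-out replicate 4, with 10.38 to 10.48 in the other knock-out arrays. Tubb3 was 9.17 in control replicate 4, with 9.64 to 9.88 in the others. Bdnf 1422168_a_at was 2.29 in knock-out replicate 5, with 2.34 to 2.35 in the others, all under the filter level.

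The change of the knock-out over control differed between replicates 4 to 6 and replicates 1 to 3 for 3 of the 14 tested member probe sets, by a limma test of the difference itself. The same test called 295 of all 17980 tested probe sets, or 1.64%. The later replicate numbers minus the earlier gave 2.52 for Stmn2 1423280_at, 2.04 for Stmn2 1423281_at and 3.40 for Sox1 1438729_at. These differences rest on putting like-numbered sets together, which deviate in opposite directions. With the sets crossed, the same test gave 0.17 for Stmn2 1423280_at, 0.21 for Stmn2 1423281_at and -0.13 for Sox1 (limma adjusted p = 1.00 each). Among all tested probe sets, the crossed test called 0. The labels do not say which sets belong together, and the cause of the split was not tested.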

How the results depend on the processing

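Of 1918 recomputed member values, 1882 stayed on their side of the threshold, 24 passed only in the alternative and 12 passed only as reported. The sign turned in 80, none of which was called as reported, and the largest was Sox1 in the knock-out, -0.85 with replicates 1 to 3 of both groups alone. For the knock-out against control, 5 member probe sets were called, 5 with any 1 array left out and 3 with replicates 4 to 6 of both groups alone, where Tubb3 (-1.04, adjusted p = 0.0629) and Thy1 (-1.19, adjusted p = 0.314) did not pass. Rcor1 1437545_at then gave 0.47 (adjusted p = 0.0663), and 0.33 (adjusted p = 0.201) with replicates 1 to 3 alone. With the sets crossed, also chosen after seeing the data, 2 were called for knock-out replicates 1 to 3 against control replicates 4 to 6, where Tubb3 (-0.98, adjusted p = 0.172), Thy1 (-2.71, adjusted p = 0.0510) and Rcor1 (0.40, adjusted p = 0.195) did not pass, and 4 for knock-out replicates 4 to 6 against control replicates 1 to 3, without Rcor1 (0.40, adjusted p = 0.177). Against control replicates 4 to 6 alone, a setting chosen after seeing the data, 1 member probe set was called for Q20 against control (2 as reported), 0 for Q50 against control (1 as reported, with Rcor1 1434336_s_at at -0.65, adjusted p = 0.0511) and 1 for Q91 against control (2 as reported). Against control replicates 1 to 3 alone, 3 were called for Q50 against control. With 1 array left out, the counts ran from 2 to 3 for Q20, 1 to 3 for Q50, 2 to 4 for Q91, 3 to 4 for Q111, 2 to 4 for the difference among the 4 knock-in lines, and stayed at 0 for the slope on CAG repeat number in the knock-in lines. The count for Q50 was 2 without control replicate 4 and 3 without Q50 replicate 1, that for Q91 was 4 without Q91 replicate 1, and that among the lines was 4 without Q20 replicate 3.

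The replicate numbers do not pair the arrays: same-numbered knock-out and control arrays deviated with r of -0.41 to -0.26, and lines and controls with -0.11 to 0.13. With the number as a replicate block, the member counts were 5, 2, 1, 2 and 3 for the knock-out, Q20, Q50, Q91 and Q111, and all 98 member values, 15 of them called, stayed on their side of the threshold. Among all probe sets, the block called 595 in Q50 (1438 without it) and 4 for the slope (8 without it).

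Calls among all tested probe sets moved by over 1.5 times in these settings. The knock-out had 2624, but 838 with replicates 1 to 3 and 1049 with replicates 4 to 6 alone, and 227 and 304 with the sets crossed. Against control replicates 4 to 6 alone, Q20 had 2225 (4539 as reported), Q50 531, Q91 2197 (3988) and Q111 2495 (4615). Q50 had 726 against control replicates 1 to 3, 601 in a fit to 2 groups and 739 without its replicate 2. Q20 had 2642 without its replicate 1, Q91 2204 without its replicate 2, and Q111 2989 without its replicate 1. The difference among the lines had 1751, with 1154 without Q50 replicate 3, 2800 without Q91 replicate 1 and 1120 without Q111 replicate 1. The slope had 0 without the filter and 0 to 16 with 1 array left out. The causes were not tested.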
